A study of Rattus norvegicus with 9 samples.

Results

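The trunk Hox genes of paralogous groups 5 to 8 were followed through the arteries of adult rats. Hox genes encode homeodomain transcription factors that lie in 4 clusters, HoxA to HoxD. Genes of a low paralog number are expressed from the head and neck backwards, and genes of a higher number begin further towards the tail, in the same order as they stand along the cluster. The middle groups pattern the neck, chest and upper abdomen, and adult smooth muscle and fibroblasts often keep the Hox pattern of the body level at which they arose. A total of 10 genes were chosen by symbol, Hoxa5, Hoxa6, Hoxa7, Hoxb5, Hoxb6, Hoxb7, Hoxb8, Hoxc6, Hoxc8 and Hoxd8, of 30452 features in each count table. All 10 were found, each on 1 line, and all 10 passed the filter on low counts in at least 1 comparison.

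RNA was sequenced after poly(A) enrichment from arteries dissected under a microscope from rat offspring aged 3 to 5 months. The dams had eaten a standard diet while pregnant and had drunk either ordinary water (control) or water with 20% sucrose. There were 3 libraries in each of 3 groups, named as in the sample titles: MAC, the mesenteric artery of controls (replicates 1 to 3), MAH, the mesenteric artery after maternal sucrose (replicates 1 to 3), and PAC, the control pulmonary artery (replicates 1, 2 and 4). Nothing in the labels names the strain, the litter or the animal behind a library, so p-values measure only the spread between these samples, which may be technical.

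Total counts per library ran from 10388231 to 15420546. Acta2, the smooth muscle actin, was present in every library, at 1025 to 8244 CPM (the standard depth-scaled count, on TMM-adjusted totals) in the mesenteric libraries and at 6084, 6792 and 748 CPM in PAC replicates 1, 2 and 4. Pecam1, an endothelial adhesion molecule, ran from 203 to 1064 CPM over the 9 libraries. The pulmonary libraries differed in other tissue. PAC replicate 4 was the highest library for 9 of 9 lymphocyte markers (summed level 1984 CPM, against 12.7 to 42.5 CPM in the other 8 libraries) and for 6 of 6 lung epithelium markers (642 CPM), and it had the lowest sum of fibroblast markers (1513 CPM, against 5665 to 13450 CPM elsewhere). Cardiac muscle markers peaked in PAC replicate 2, for 8 of 8 genes (22030 CPM in sum, 1083 and 1916 CPM in PAC replicates 1 and 4 and 33.3 to 110 CPM in the mesenteric libraries). In PAC replicate 1 that sum was mostly Actc1 (1022 CPM) with Ryr2 at 52.5 CPM. Every other cardiac marker was at 2.65 CPM or less there. PAC replicate 1 held the lung epithelium markers at 0.745 CPM in sum, within the mesenteric range of 0 to 1.46 CPM. By single markers in PAC replicates 1, 2 and 4, the T cell gene Cd3e was at 3.89, 0.788 and 86.6 CPM, the surfactant gene Sftpc at 0.0828, 28.2 and 62.2 CPM, the cardiac myosin gene Myh6 at 2.65, 6074 and 465 CPM and the mesothelial gene Msln at 50.7, 9.17 and 137 CPM. The fat cell gene Adipoq was at 203, 152 and 6.58 CPM and the fibroblast gene Pdgfra at 112, 138 and 57.8 CPM. Gut epithelium markers summed to 1.16, 2.65 and 15.0 CPM and skeletal muscle markers to 71.8, 308 and 37.1 CPM in the same 3 libraries, although the first gene of each list, Cdx1 and Myh4, was at or under 0.358 CPM in all 9 libraries. The part of these cells in the Hox levels was not tested.

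All 10 trunk Hox genes were lower in each of the 3 pulmonary libraries than in each of the 6 mesenteric libraries. Their summed level was 148 ± 47.1 CPM in MAC, 155 ± 26.8 CPM in MAH and 14.7 ± 5.16 CPM in PAC (SD, n = 3 per group). Of 14709 features that passed the filter over the 3 groups, 676 (4.60%) were lower in all 3 pulmonary than in all 6 mesenteric libraries. For all 10 members the highest pulmonary library was also under 50% of the lowest mesenteric library, which held for 94 features (0.639%). Several members, Hoxa6, Hoxa7, Hoxb7, Hoxb8, Hoxc6 and Hoxc8, had too few pulmonary counts to pass the filter without the mesenteric libraries. A lower pulmonary level was largely fixed for them by the filter, so these shares are not a test of it. As a percentage of the MAC mean, the pulmonary mean differed by gene. It was largest of the 10 for Hoxa5 and Hoxb5 and smallest for Hoxc8, which had 1 count in 3 pulmonary libraries. In bulk tissue, fewer cells of a type and less RNA per cell cannot be told apart.

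**Figure D1:**
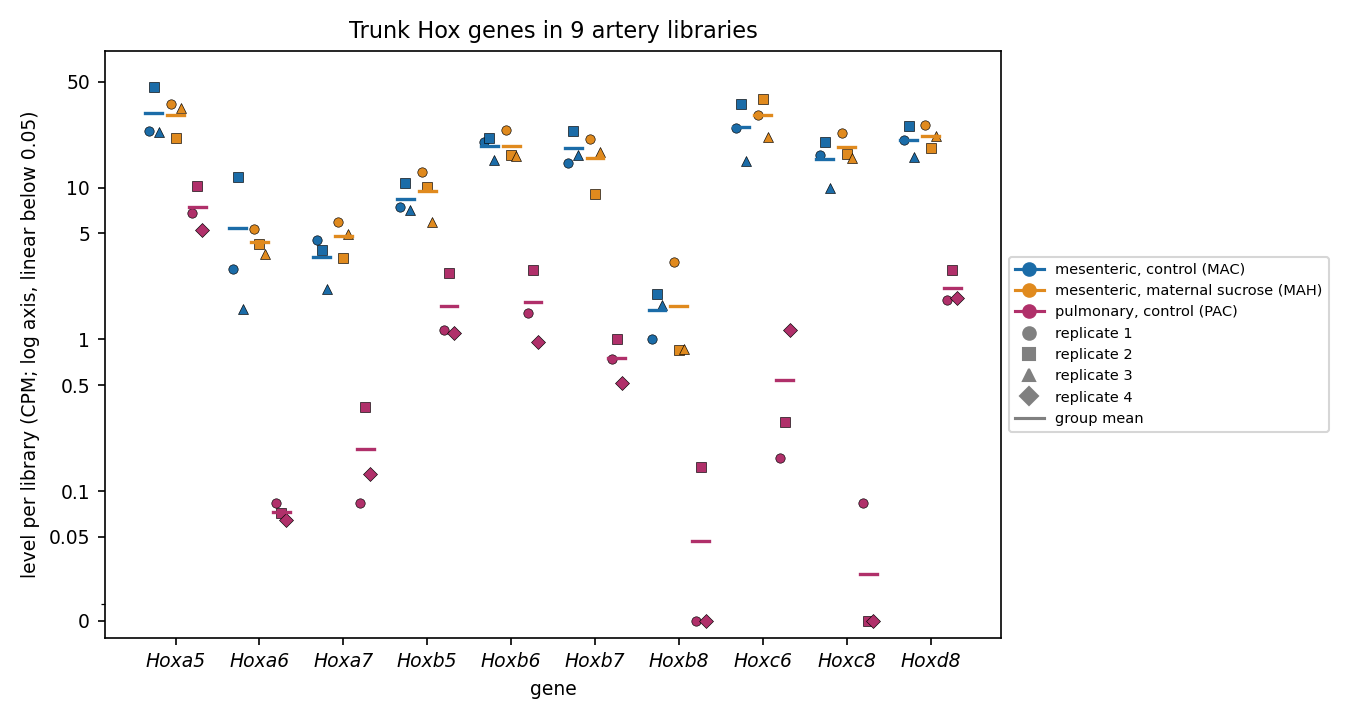
Level of each trunk Hox gene in every library, in CPM on a log axis that is linear below 0.05 CPM. Points are libraries, the shape gives the replicate number, the colour gives the group and bars are group means; for each gene the 3 pulmonary points lie below the 6 mesenteric points, and MAC and MAH points overlap.

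Hoxa5 and Hoxb5, the group 5 members, had the highest pulmonary means of the 10 as a percentage of their MAC means. Hoxa5, which is needed for normal development of the trachea and lung, was at 23.8, 46.0 and 23.4 CPM in MAC replicates 1, 2 and 3, at 35.4, 21.4 and 33.3 CPM in MAH replicates 1, 2 and 3, and at 6.79, 10.3 and 5.29 CPM in PAC replicates 1, 2 and 4. The lowest mesenteric library stood 2.07 times above the highest pulmonary library, the narrowest gap of the 10 genes. Its pulmonary mean was 24.1% of the MAC mean, a log2 fold change of −2.07 ± 0.42 (SE). Hoxb5, a homeobox gene of foregut and endothelial development, was at 7.47, 10.7 and 7.10 CPM in MAC, at 12.7, 10.1 and 5.92 CPM in MAH and at 1.16, 2.72 and 1.10 CPM in PAC. Its pulmonary mean was 19.7% of the MAC mean (log2 fold change −2.35 ± 0.52). In both genes PAC replicate 2 was the highest and PAC replicate 4 the lowest pulmonary library.

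Hoxc5, the remaining member of paralogous group 5 in the files and not among the 10 genes, did not have this remainder. It was at 7.07, 6.63 and 5.51 CPM in MAC and at 0.166, 0 and 0.258 CPM in PAC, 2.21% of the MAC mean.

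Group 6 genes split by cluster. Hoxb6, a gene of the lateral plate mesoderm that gives rise to the gut wall and limbs, was at 20.1, 21.4 and 15.1 CPM in MAC, at 23.9, 16.5 and 16.2 CPM in MAH and at 1.49, 2.86 and 0.968 CPM in PAC. The pulmonary mean was 9.40% of the MAC mean (log2 fold change −3.41 ± 0.49). Hoxa6, its paralog in the HoxA cluster, was at 2.89, 11.7 and 1.59 CPM in MAC, at 5.32, 4.27 and 3.63 CPM in MAH and had 1 count in each pulmonary library. MAC replicate 2 set the wide spread of Hoxa6 in MAC. The ratio of MAC to PAC, from 196 and 3 counts, was 73.0 (exact 95% interval 24.6 to 357, for counting error only). MAC replicate 2 gave 136 of the 196 counts, and the fitted log2 fold change was −6.06 with it and −4.77 without it.

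Hoxc6, a gene of the chest level that is also expressed in the mammary gland, was at 24.8, 35.5 and 15.0 CPM in MAC, at 30.3, 38.2 and 21.5 CPM in MAH and at 0.166, 0.286 and 1.16 CPM in PAC. The pulmonary mean was 2.14% of the MAC mean (log2 fold change −5.48 ± 0.82, and −6.72 without PAC replicate 4). Replicate 4 gave 18 of the 24 pulmonary counts of Hoxc6. It was likewise the highest pulmonary library for the next genes of the cluster, Hoxc5 with 4 of 6 counts and Hoxc4 with 31 of 37 counts. Hoxc6 overlaps both genes in the RefSeq annotation, so their reads cannot be told apart. Replicate 4 was the lowest pulmonary library for 5 of the 10 members. Hoxc6 was the only one of the 10 that was highest in replicate 4. Lymphocyte and lung epithelium markers were at their highest in that library, as given above, and their part in the HoxC counts was not tested.

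Group 7 genes were near the detection limit or low in pulmonary artery. Hoxa7 was at 4.51, 3.87 and 2.15 CPM in MAC, at 5.94, 3.42 and 4.97 CPM in MAH and had 1, 5 and 2 counts in the pulmonary libraries (0.0828, 0.358 and 0.129 CPM). Its log2 fold change between PAC and MAC was −4.14 ± 0.69, and −4.91 without PAC replicate 2. Hoxb7, whose promoter is widely used to mark the ureteric bud of the kidney, was at 14.5, 23.6 and 16.5 CPM in MAC, at 20.8, 9.11 and 17.3 CPM in MAH and at 0.745, 1.00 and 0.516 CPM in PAC. The pulmonary mean of Hoxb7 was 4.15% of the MAC mean (log2 fold change −4.59 ± 0.45), and the lowest mesenteric library stood 9.09 times above the highest pulmonary library.

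In group 8, Hoxc8 had the lowest pulmonary mean of the 10 as a percentage of the MAC mean, and Hoxd8 had a higher one. Hoxc8, which acts in motor neurons and skeleton of the chest level, was at 16.4, 20.0 and 9.90 CPM in MAC, at 22.8, 16.8 and 15.7 CPM in MAH and had 1, 0 and 0 counts in PAC replicates 1, 2 and 4. The MAC and PAC counts of 581 and 1 gave a ratio of 649 (116 to 25670). Hoxb8, which also acts in blood cell precursors, was low everywhere, at 1.01, 1.98 and 1.68 CPM in MAC, at 3.24, 0.854 and 0.859 CPM in MAH and at 0, 2 and 0 counts in PAC, a ratio of MAC to PAC of 31.3 (8.26 to 265). Without PAC replicate 2 no pulmonary count of Hoxb8 remained, and without PAC replicate 1 none of Hoxc8. Hoxd8, the single HoxD gene of groups 5 to 8, was at 20.5, 25.6 and 16.0 CPM in MAC, at 25.9, 18.2 and 21.8 CPM in MAH and at 1.82, 2.86 and 1.87 CPM in PAC. Its pulmonary mean was 10.6% of the MAC mean (log2 fold change −3.24 ± 0.38), so it kept more of its mesenteric level than Hoxb8 and Hoxc8 by point estimate. The differences between members were not tested.

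Members that were low together in pulmonary artery can be set beside their promoters. RefSeq start sites on the GRCr8 assembly were at hand for 3 of the 10, Hoxa6, Hoxa7 and Hoxd8, which stand for a barely detected gene, a gene of few pulmonary counts and a gene with a clear pulmonary remainder. The 250 bases before each start are shown 5′ to 3′ on the strand of the gene, at chr4:82639464-82639713 (minus strand), chr4:82648242-82648491 (minus strand) and chr3:80014973-80015222 (plus strand) of GRCr8. This is a later build than the rn7 of the counts. Capitals mark matches, on either strand, to 3 of 8 motifs searched: the GC box GGGCGG, the CCAAT box, which reads as ATTGG on the opposite strand, and the E-box CACGTG.
Hoxa6: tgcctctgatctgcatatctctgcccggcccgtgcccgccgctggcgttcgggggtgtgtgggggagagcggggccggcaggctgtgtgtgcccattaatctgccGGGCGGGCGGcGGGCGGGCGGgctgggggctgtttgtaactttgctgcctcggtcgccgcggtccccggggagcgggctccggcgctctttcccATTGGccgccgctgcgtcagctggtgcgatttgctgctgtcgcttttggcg
Hoxa7: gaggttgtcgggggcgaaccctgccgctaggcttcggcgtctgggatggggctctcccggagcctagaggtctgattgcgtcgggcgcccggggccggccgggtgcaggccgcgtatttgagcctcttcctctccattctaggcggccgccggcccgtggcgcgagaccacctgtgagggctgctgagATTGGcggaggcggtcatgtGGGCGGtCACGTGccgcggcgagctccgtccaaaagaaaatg
Hoxd8: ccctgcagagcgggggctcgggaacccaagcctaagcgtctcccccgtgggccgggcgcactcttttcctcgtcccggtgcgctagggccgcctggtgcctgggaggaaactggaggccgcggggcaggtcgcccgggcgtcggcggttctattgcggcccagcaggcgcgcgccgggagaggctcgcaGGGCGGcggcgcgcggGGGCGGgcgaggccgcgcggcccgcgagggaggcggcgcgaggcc

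All 3 windows are rich in CpG. They held 28, 28 and 38 CpG dinucleotides and were 70.8%, 68.8% and 78.8% G or C, against medians of 5 CpG and 51.2% over 33465 promoter windows of the same length. GGGCGG was found 4 times in Hoxa6, where the matches form 2 overlapping pairs, once in Hoxa7 and 2 times in Hoxd8, and it occurs in 30.5% of all windows. ATTGG lay 51 to 47 bases before the start in Hoxa6 and 62 to 58 bases before it in Hoxa7 (the motif is in 34.0% of windows), and CACGTG 35 to 30 bases before it in Hoxa7 (5.59%). TATAAA (12.9% of windows), the homeodomain core TAATTA (4.86%), the Hox-Pbx form TGATNNAT (7.95%), TTTATG, a Cdx site (11.4%), and the nuclear receptor site AGGTCA (14.1%) were not in these 3 windows. The matches are letters in a window and not measured binding.

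Within each cluster, the pulmonary share of the mesenteric control level was compared along the paralog numbers. In HoxB the share was 93.9% for Hoxb3 and 112% for Hoxb4, then 19.7% for Hoxb5, 9.40% for Hoxb6, 4.15% for Hoxb7 and 3.07% for Hoxb8 (2 pulmonary counts; a count of 3 would give 4.64%). In HoxA it was 163% for Hoxa4, 24.1% for Hoxa5, 1.35% for Hoxa6 (3 pulmonary counts) and 5.41% for Hoxa7 (8 counts). The order of Hoxa6 and Hoxa7 thus rests on few counts. In HoxC the share was already low at Hoxc4 (7.14%), the first HoxC gene measured. It was 2.21% for Hoxc5, 2.14% for Hoxc6 and 0.179% for Hoxc8 (1 count, where 3 counts would give 0.469%). In HoxD, Hoxd3 was at 67.0%, Hoxd4 at 13.0% and Hoxd8 at 10.6%. Hoxd3 varied widely, at 1.28, 6.97 and 0.560 CPM in MAC replicates 1, 2 and 3. These shares are ratios within a gene, so transcript length does not enter; they describe 3 against 3 libraries.

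**Figure D2:**
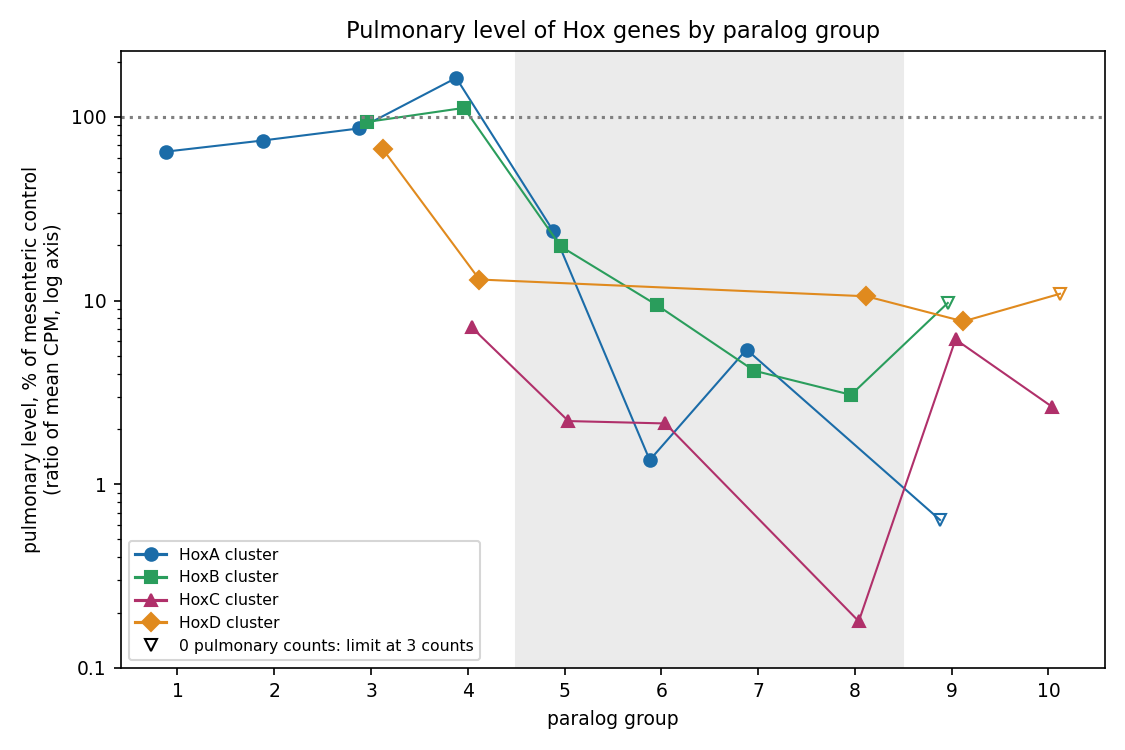
Mean pulmonary level as a percentage of the mean mesenteric control level (log axis) against paralog group, for Hox genes with at least 20 counts over the MAC libraries. Lines join genes of a cluster, the shaded band marks groups 5 to 8 and open triangles are limits for genes with 0 pulmonary counts. HoxA and HoxB drop between groups 4 and 5, from 163% to 24.1% and from 112% to 19.7%. HoxC and HoxD are already at 7.14% and 13.0% in group 4.

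The anterior genes of groups 1 to 4 were set beside the trunk genes. Of 9 tested anterior genes 2 were higher and 7 lower in PAC than in MAC, with a median log2 fold change of −0.43. The same median was −4.36 over the 10 trunk genes (10 lower) and 0.06 over all 14315 genes tested, of which 45.5% were lower. With Hoxa6, Hoxb8 and Hoxc8 set at the bound of their counting intervals, the trunk median was −3.78. Hoxa6, Hoxa7, Hoxb7, Hoxb8, Hoxc6 and Hoxc8 passed the filter through the MAC libraries only. A negative fold change was largely fixed in advance for them, so these medians are not a test of the contrast. Hoxb3, an anterior neighbour, was at 43.3, 40.5 and 35.5 CPM in MAC and at 53.7, 49.9 and 8.58 CPM in PAC, so pulmonary replicate 4 was low for it too. Hoxa4, the gene before Hoxa5, was not lower (0.70, adjusted p = 0.703 with edgeR). Of the 9, 2 were lower in all 3 pulmonary libraries than in all 3 MAC libraries, against 7.57% of all genes tested. They were Hoxd4 (−2.94) and Hoxc4 (−3.74), with adjusted p-values of 0.278 and 0.398 (edgeR). As with the trunk members, calls varied by method. DESeq2 called both (adjusted p = 0.000334 and 0.00173). With limma-voom Hoxc4 was called (0.0417) and Hoxd4 was not (0.264). Without PAC replicate 4 Hoxc4 was at −5.57 with an adjusted p of 0.0250 (edgeR), and without MAC replicate 2 Hoxd4 was at −2.27. Of the posterior genes, Hoxd9 alone passed the filter (−3.69, adjusted p = 0.272 with edgeR and 4.11e-05 with DESeq2, and −4.74 without PAC replicate 2). Hoxa9 had more MAC counts (455, against 298 for Hoxd9) but 0 in MAC replicate 3, so it was not tested.

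As a share of all Hox counts in a library, groups 5 to 8 (the 10 genes and Hoxc5) made up 48.4%, 57.4% and 41.1% in MAC, 56.9%, 55.0% and 57.5% in MAH and 7.51%, 13.4% and 23.3% in PAC replicates 1, 2 and 4. The exact 95% binomial intervals were 6.40% to 8.75%, 11.95% to 14.9% and 20.3% to 26.5% in the 3 pulmonary libraries, so these libraries differed from each other by more than counting error. None of them reached the lowest mesenteric interval, 39.3% to 42.9% in MAC replicate 3. The higher share in PAC replicate 4 came with a lower total: it had 573 anterior and 176 trunk counts, against 1865 and 152 in PAC replicate 1, at depths of 15121677 and 11194622 counts. A low pulmonary share was not particular to the trunk genes. Posterior genes made up 10.4%, 7.62% and 4.14% in MAC, 9.81%, 10.55% and 4.85% in MAH and 0.346%, 0.881% and 0.926% in PAC.

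**Figure D3:**
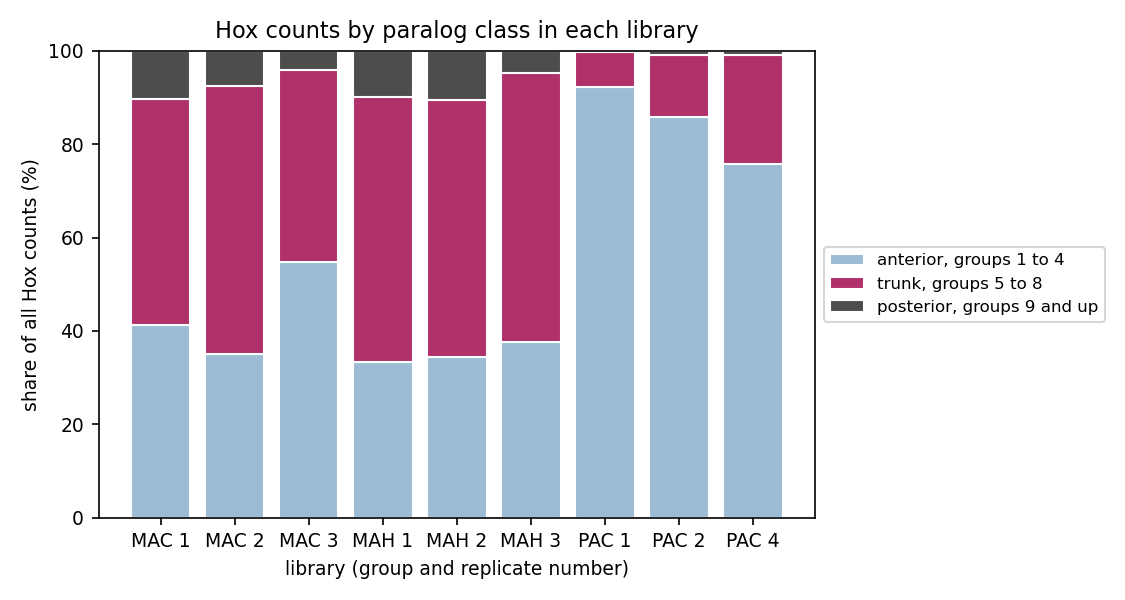
Share of all Hox counts (percent) from anterior, trunk and posterior paralog groups in each library. The trunk share is 41.1% to 57.5% in the mesenteric and 7.51% to 23.3% in the pulmonary libraries.

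The first test compared the 2 arteries of control offspring, PAC and MAC. With edgeR's quasi-likelihood test and Benjamini-Hochberg adjustment over 14315 genes, 0 of 10 members passed an adjusted p of 0.05, against 2 of all genes (0.0140%). All 10 had an unadjusted p under 0.05 and were lower, against 616 genes (4.30%), and all 10 were lower in every pulmonary than in every MAC library, against 1084 genes (7.57%). For Hoxa6, Hoxa7, Hoxb7, Hoxb8, Hoxc6 and Hoxc8 the filter was passed through the MAC libraries only. Their direction and lack of overlap were thus largely fixed in advance. Hoxb7 (adjusted p = 0.0719), Hoxc8 (0.0740) and Hoxd8 (0.0882) came nearest, at ranks 5, 6 and 11 of all genes by p, and Hoxb5 was farthest (0.333). DESeq2 called 10 of 10 members and 408 genes in all. With limma-voom 2 members of 33 genes in all were called, Hoxb7 and Hoxc8. With all 9 libraries in 1 fit it was 7 of 38, all but Hoxa5, Hoxb5 and Hoxb8. Without PAC replicate 4 the edgeR test called 3 of 22, Hoxb7, Hoxc6 and Hoxc8, each with an adjusted p of 0.0250. Over all alternatives the adjusted p ran from 2.77e-18 to 0.339 for Hoxb7, from 1.66e-10 to 0.468 for Hoxc6 and from 4.4e-10 to 0.355 for Hoxc8.

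Pulmonary artery was then set against the mesenteric arteries of the sucrose group, where artery type and maternal diet differ together and cannot be told apart. This comparison has the same pulmonary libraries as the first. Of 9 tested members 4 passed and fell in PAC, against 23 of 14222 genes in either direction (0.162%) and 21 lower (0.148%). They were Hoxd8 (log2 fold change −3.32 ± 0.35, adjusted p = 0.0477), Hoxb7 (−4.37 ± 0.51, 0.0498), Hoxa6 (152 counts in MAH and 3 in PAC, a ratio of 61.9 with an interval of 20.8 to 304, 0.0477) and Hoxc8 (637 and 1 counts, a ratio of 779 with an interval of 139 to 30800, 0.0477). Hoxc6 (−5.72, adjusted p = 0.0698), Hoxa7 (−4.57, 0.0818), Hoxb6 (−3.41, 0.0847), Hoxa5 (−2.01, 0.127) and Hoxb5 (−2.52, 0.196) did not pass, and Hoxb8 had too few counts to be tested. All 9 had a fold change below 0 (44.6% of all genes did) and an unadjusted p under 0.05 (5.53% were lower at that p), and were lower in every pulmonary than in every MAH library, against 1256 genes (8.83%). Here Hoxa6, Hoxa7, Hoxb7, Hoxc6 and Hoxc8 passed the filter through the MAH libraries only, so their direction was largely fixed in advance. That holds for the called members Hoxa6, Hoxb7 and Hoxc8. The 4 calls were lost, with 0 members called, when MAH replicate 1, 2 or 3 or PAC replicate 1 or 2 was left out. No gene at all was called in those fits. Without PAC replicate 4, 7 members were called, of 200 genes in all, and Hoxc6 was at −6.97. Without PAC replicate 2 Hoxa7 was at −5.32. With median ratio factors or no filter on low counts 0 members were called, of 2 genes in all. Hoxb7 also lost its call with the stricter filter, Hoxa6 with all 9 libraries in 1 fit, and both with PAC replicate 1 as the only pulmonary library. Over all alternatives the adjusted p ran from 4.08e-13 to 0.282 for Hoxb7 and from 1.72e-11 to 0.282 for Hoxc8.

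**Figure D4:**
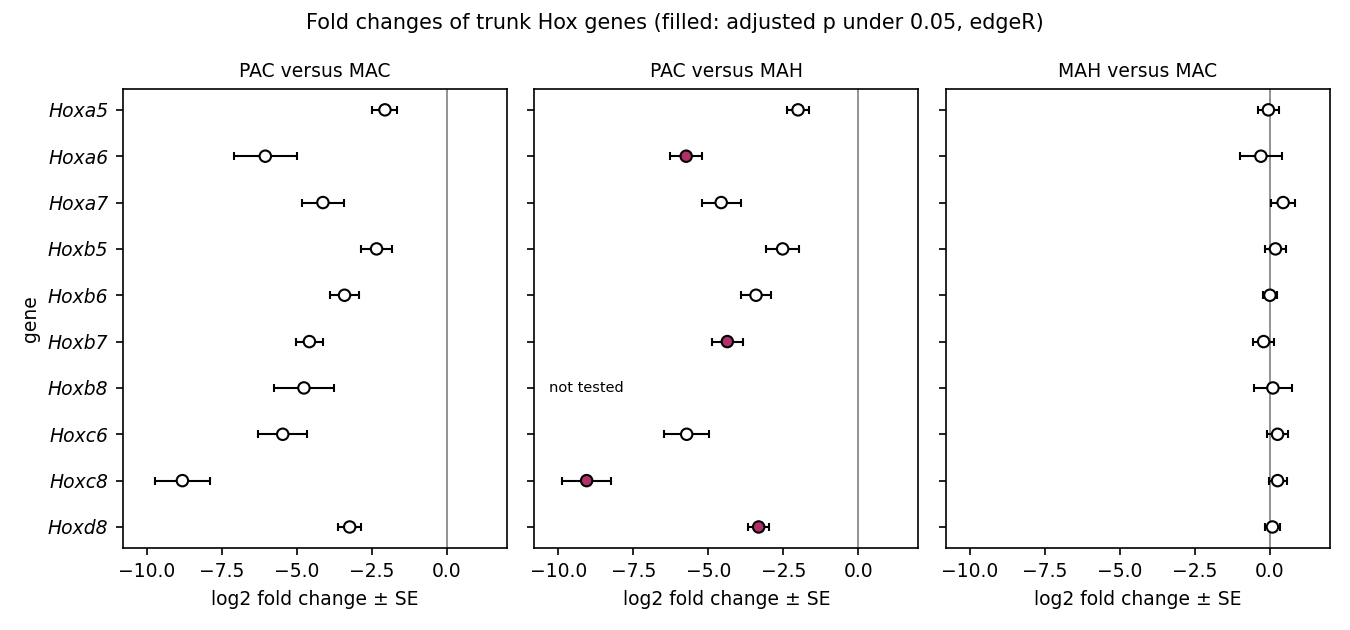
Log2 fold change with its SE from the edgeR fit for each trunk Hox gene in 3 comparisons; filled points passed an adjusted p of 0.05. All points lie below 0 in both pulmonary comparisons, from −2.01 to −9.06, and those of MAH versus MAC lie between −0.30 and 0.45; the fitted values of Hoxa6, Hoxb8 and Hoxc8 against PAC rest on 3, 2 and 1 pulmonary counts and depend on the prior count.

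The comparison the study set out to make, maternal sucrose against control within the mesenteric artery, showed no called difference in the trunk Hox genes. Of 10 tested members 7 had a log2 fold change above 0 and 3 below, with a median of 0.10 against 0.0024 over all 13995 genes, of which 49.7% were below 0. None passed with edgeR (adjusted p = 1.00 for each, percent called 0 over all genes), 0 had an unadjusted p under 0.05 (1.99% of all genes did), and DESeq2 and limma-voom called 0 of them. The MAC and MAH values of every member overlapped, so 0 were apart in either direction, against 3.26% of genes lower and 2.84% higher. The intervals of the difference (95%, from the edgeR fit) were narrowest for Hoxb6, whose log2 fold change of 0.01 had an interval of −0.55 to 0.56, and for Hoxd8 (0.09, −0.47 to 0.65). They ran from −0.44 to 0.96 for Hoxc8 (0.26), from −0.58 to 1.10 for Hoxc6 (0.26), from −0.84 to 0.75 for Hoxa5 (−0.05) and from −0.62 to 1.00 for Hoxb5 (0.19). For Hoxa7 (0.45, −0.49 to 1.38), Hoxb7 (−0.20, −1.01 to 0.60), Hoxa6 (−0.30, −1.98 to 1.39) and Hoxb8 (0.10, −1.41 to 1.62) the interval held a change of 1 in log2, up or down, as it did for Hoxc6.

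Among the 6 mesenteric libraries the members did not all vary alike. The coefficient of variation over these libraries was 18.3% for Hoxb6 and 18.6% for Hoxd8, 25.8% to 31.8% for Hoxc8, Hoxb5, Hoxb7, Hoxa5, Hoxa7 and Hoxc6, 57.8% for Hoxb8 and 72.7% for Hoxa6. MAC replicate 3 was the lowest mesenteric library for 6 of 10 members and MAH replicate 1 the highest for 6 of 10. MAC replicate 2 was the highest for 3, Hoxa5, Hoxa6 and Hoxb7. Cell type markers moved among the same libraries. MAC replicate 2 had the lowest sum of smooth muscle markers in the mesenteric libraries (11530 CPM, against 18420 to 44590 CPM). Its sum of fibroblast markers was the highest (13450 CPM, against 5665 to 7678 CPM), but Dcn alone gave 9216 CPM of it. Of 8 fibroblast markers, 5 were highest in MAC replicate 2 and 3 in MAC replicate 3. Col1a1, for 1, was at 452 CPM in MAC replicate 2 and 1806 CPM in MAC replicate 3. The part of these cells in the Hox levels of MAC replicate 2 was not tested.

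A posterior neighbour, Hoxa9, had a coefficient of variation of 74.1%, near that of Hoxa6, and was missing from 1 mesenteric library. Hoxa9, which lies beside Hoxa7 in the cluster, was at 18.8, 15.1, 0 CPM in MAC replicates 1, 2 and 3 and at 17.9, 15.2 and 1.34 CPM in the MAH replicates of the same numbers. It had 0 counts over the pulmonary libraries. Hoxa7 was present in MAC replicate 3 and MAH replicate 3 with 23 and 52 counts (2.15 and 4.97 CPM), the lowest of the MAC libraries but the middle of the MAH libraries.

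The standardized profiles over the 9 libraries were also ranked by likeness to the mean profile of the 10 members, among 14528 features. Likeness was the root mean square distance between profiles of log2 CPM scaled to a mean of 0 and an SD of 1 per gene, which is 0 for identical profiles. Hoxd8 was the member nearest to the mean (0.061) and Hoxc6 the farthest (0.265). Among the 8 nearest other genes with a symbol were Zfhx4, a zinc finger homeobox gene (0.182), Nkx2-3, a homeobox gene of gut and spleen mesoderm (0.200), Slit2, a secreted guidance cue (0.221), Pla2r1, a phospholipase receptor (0.239), the olfactory receptor gene Olr59 (0.245), Shisal1 (0.248) and Hoxd9 (0.255). Zfhx4 ran from 10.4 to 30.7 CPM in the mesenteric libraries and was at 0.580, 1.43 and 1.10 CPM in PAC. The ranking describes 9 libraries.

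Hox proteins bind DNA together with TALE homeodomain partners, and Hox genes are switched by retinoic acid, Cdx factors and chromatin complexes. The partners were measured in both arteries, and edgeR called none of them in PAC against MAC. That test called 2 of all 14315 genes (0.0140%) and 0 of the 10 trunk members. A missing call therefore does not show equal levels. Of 10 tested TALE genes 4 were higher and 6 lower in PAC than in MAC (median log2 fold change −0.12), 0 passed and 0 had an unadjusted p under 0.05, with Meis3 (−0.50), Pbx2 (0.44) and Pbx3 (−0.28) at the smallest p. Meis1 was at 77.5, 48.9 and 69.8 CPM in MAC and at 83.3, 67.4 and 18.4 CPM in PAC, so that it was low in PAC replicate 4 alone. Of 25 chromatin regulators 17 were higher and 8 lower (median 0.15). None passed, and the smallest p values were those of Cbx2, a Polycomb subunit (2.36, and 0.90 without PAC replicate 4), Kdm6b, a histone H3 demethylase (−1.31), and Men1, a partner of the MLL methyltransferases (0.54).

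Of 15 tested retinoid and Cdx list genes 8 were higher and 7 lower in PAC (median 0.12) and 0 passed with edgeR. Stra6, a retinol transporter, was at 5.30, 1.29 and 22.1 CPM in PAC and at 0.19 to 0.34 CPM in the mesenteric libraries (log2 fold change 5.14 ± 1.18, adjusted p = 0.348 with edgeR, and 3.57 without PAC replicate 4, its highest library). DESeq2 called Stra6 (adjusted p = 0.000226). Gdf11, a growth factor that sets the trunk to tail transition (−1.27), and Aldh1a3, a retinaldehyde dehydrogenase (−0.98), had the next smallest p. In MAH against MAC the TALE list had 0 calls of 10, the chromatin list 0 of 24 and the retinoid list 0 of 13, with unadjusted p under 0.05 for 0, 0 and 2 genes. Noncoding transcripts of the Hox clusters were nearly unmeasured: 5 of 15 listed were in the files and 1 was tested, Mir10a (1.03 in PAC against MAC, adjusted p = 0.771), and read counts of such a locus do not measure the mature microRNA.

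Some counts could be shared with neighbours. In the RefSeq table Hoxa5 and Hoxa6 overlap Hoxa3 and the noncoding Hoxaas3, Hoxb5 and Hoxb6 overlap the noncoding Hoxb5os, and Hoxc6 overlaps Hoxc5, Hoxc4 and Mir615. No source here names the counting program or the strand it used, so reads of these overlapping genes cannot be told apart. Hoxa7, Hoxb7, Hoxb8, Hoxc8 and Hoxd8 overlap no other gene there.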

How the data were processed

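The authors deposited 1 table of whole-number read counts per gene for each of 9 libraries, unnormalized, on genome build rn7 per the submitters' processing notes; no source names the aligner, counting program, annotation or strand. Groups came from the sample titles. Total counts were 10388231 to 15420546 per library. Tests used edgeR 4.0.16 (glmQLFTest in R 4.3.3, with TMM factors, filterByExpr and a robust prior) on the 6 libraries compared, with Benjamini-Hochberg adjustment over all genes tested and a threshold of 0.05. The SE was taken from the fold change and the F statistic. CPM used totals scaled by TMM over all 9 libraries. Where a group had 1 to 3 counts, an exact conditional ratio interval (95%) is given; intervals cover counting error only, since the labels name no molecular identifiers. Alternatives included DESeq2 1.42.0, limma 3.58.1 voom, other scalings and filters, and each library left out. The test was tried on simulated counts with known changes in each comparison. Their spread between libraries was fixed and held no differing tissue, so that trial does not measure how the test performs on these libraries. Members, 19 gene lists (173 of 190 genes found by symbol), tests and alternatives were chosen with earlier results of these data known. Named were all members, the genes of smallest p per Hox-related list (at most 3), the first marker of each cell type, and the 8 likest profiles. Hoxb3, Hoxb4, Hoxd3, Hoxa9, Meis1 and the markers Dcn, Col1a1, Actc1 and Ryr2 were added after their values were seen. Some genes that this rule names are not reported here. The labels do not say whether replicate numbers pair the samples, and the main tests took them as unpaired. Libraries of a group differed by 42.5 to 312 in chi-square per degree of freedom, more than counting noise; separate preparations of 1 sample would not be told apart by this.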

Additional observations from a re-analysis of the deposited data

How the results depend on the processing

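All 10 members kept a log2 fold change below 0 in PAC against MAC under all alternatives that could fit them, and so did all members in PAC against MAH. The number of members called varied. In PAC against MAC it was 0 with edgeR, 10 with DESeq2, 2 with limma-voom and quality weights, 2 with the newer quasi-likelihood method, 7 with all 9 libraries in 1 fit and 3 with the replicate number as a block, and 0 to 3 with 1 library left out. In PAC against MAH it was 4, and 0 with median ratio factors, 9 with DESeq2, 7 with limma-voom, 0 with no filter, 9 with the replicate number as a block, and 0 to 7 with 1 library left out. The genes called in all went from 2 to between 0 and 408 in PAC against MAC, from 23 to between 0 and 545 in PAC against MAH and from 0 to between 0 and 3 in MAH against MAC, the highest with DESeq2 each time. Without PAC replicate 4 they were 22 and 200. The cause of these differences was not tested.

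In MAH against MAC 0 members were called under each alternative, and small fold changes turned sign. Hoxb6 was at −0.0012 with upper quartile factors and −0.00032 with no filter, Hoxa5 at 0.20 and Hoxa6 at 0.71 with limma-voom, and with the replicate block Hoxa5 was at 0.016, Hoxa6 at 0.20 and Hoxb8 at −0.12. With 1 library left out, the log2 fold change ran from −0.22 to 0.37 for Hoxa5, −0.73 to 0.98 for Hoxa6, −0.056 to 0.43 for Hoxb5, −0.18 to 0.12 for Hoxb6, −0.44 to 0.078 for Hoxb7, −0.83 to 0.42 for Hoxb8, −0.0046 to 0.61 for Hoxc6 and −0.069 to 0.29 for Hoxd8, and the median of the members from −0.11 to 0.39. In PAC against MAC, Pbx2 turned to −0.0022 with PAC replicate 1 as the only pulmonary library. Deviations from the group means correlated at 0.196, −0.278 and 0.118 for replicates 1, 2 and 3 of MAH and MAC. They correlated at 0.173 and −0.164 for replicates 1 and 2 of PAC and MAC. With 3 libraries per group, these values cannot show whether samples of the same number belong together. Summed member levels on plain library totals moved by less than 1 SD (150, 156 and 14.5 CPM in MAC, MAH and PAC). Hoxb8, Hoxa6 and Hoxc8 are limited by 2, 3 and 1 pulmonary counts.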
